A study of Mus musculus with 4 samples.

Results

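The unfolded protein response was examined through the ATAC-seq peaks at 10 of its genes, *Ern1*, *Eif2ak3*, *Atf6*, *Xbp1*, *Atf4*, *Ddit3*, *Ppp1r15a*, *Hspa5*, *Hsp90b1* and *Calr*. These are 10 of the 21911 protein-coding genes in the annotation used (GENCODE vM21, GRCm38, the same build as mm10). Peaks were included if they lay in the body of a gene or within 20 kb of it. This gave 69 of the 64360 deposited peaks, 23 of 21176 in the control female list, 1 of 1236 in the control male, 1 of 504 in the VEDS female and 44 of 41444 in the VEDS male. All 10 genes had at least 1 peak.

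The unfolded protein response is set off when unfolded proteins build up in the endoplasmic reticulum (ER), the compartment in which secreted proteins such as collagen chains fold. Its sensors sit in the ER membrane. IRE1 (*Ern1*) splices the mRNA of the transcription factor XBP1, PERK (*Eif2ak3*) phosphorylates eIF2α and thereby favors translation of ATF4, and ATF6 is cut to release a transcription factor. ATF4 induces CHOP (*Ddit3*) and, with it, GADD34 (*Ppp1r15a*), which reverses eIF2α phosphorylation. The chaperones BiP (*Hspa5*), GRP94 (*Hsp90b1*) and calreticulin (*Calr*) are classic targets of ATF6 and XBP1, which act with the CCAAT-binding factor NF-Y on a composite sequence, the ER stress element (ERSE).

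ATAC-seq marks accessible DNA by insertion of the transposase Tn5. Nuclei of aortic tissue from control mice (*Col3a1*+/+) and VEDS mice (*Col3a1*G938D/+, heterozygous for a glycine substitution in type III collagen, a model of vascular Ehlers-Danlos syndrome) were profiled at 60 days of age, on a C57BL/6J background. Each genotype had 1 female and 1 male library, each a pool of tissue from 2 mice, and the annotations name no drug for either. The libraries were made with a single-cell kit and analyzed in aggregate, so fewer nuclei with an open region and less opening per nucleus cannot be told apart, and the cells that gave a peak are not identified. Genotype replicates also differed in sex, and no test between genotypes was made, since 2 libraries against 2 cannot give a two-sided exact permutation p below 0.333.

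The lists differed widely in length. The number of tags (sequenced ends or fragments piled up at a summit) was recovered for 99.3% to 99.9% of peaks, with a median of 22 in the VEDS male list, 14 in the control female, 7 for the control male and 6 for the VEDS female. The longer lists were those of the control female and VEDS male libraries, whose library names are consecutive, as are those of the shorter lists. Each genotype and each sex thus had 1 longer and 1 shorter list. Between the longer lists, genotype, sex and list length cannot be told apart, and the merged peaks of a genotype rest mainly on its longer list. A gene without a peak in the shorter lists was not taken as closed. Promoter peaks of smooth muscle markers were found for 6 of 6 genes in both longer lists. Those of endothelial markers were found for 0 of 4 and 2 of 4 genes (*Tek* and *Kdr*, VEDS male), of fibroblasts for 1 of 3 in each (*Pdgfra*), of immune cells and adipocytes for 0 of 3, and of striated muscle for 1 of 3 (*Actn2*) and 2 of 3 (*Ckm* in addition, VEDS male). Of the markers of cells not expected in aorta, hepatocyte genes had none of 3 and neuronal genes 0 and 1 of 3 (*Snap25*, VEDS male).

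The following sequences carry the known recognition sites that lay within the peaks, which is why they are shown. Capitals mark matches on either strand. An ERSE is a CCAAT box followed, after any 9 bases, by the letters CCACG, and its fixed parts are in capitals, as are other CCAAT boxes. The other matches are TGACGTNA (a sequence like the cAMP response element, CRE, bound by ATF and CREB factors), the 7 letters TGACGTG preferred by ATF6 and XBP1 (which overlap it), the C/EBP-ATF element TGATGNAAT bound by ATF4 with C/EBP factors, the AP-1 site TGAGTCA, the E-box CACGTG and, in an intron of *Atf6*, a MEF2 site. All are from GRCm38, 5′ to 3′ on the strand of the gene, and end at the base before the gene start unless stated. Of the exons of the 10 genes only the short sites of *Hspa5* and *Xbp1* are given, and the run upstream of *Ddit3* also covers exons of the noncoding *Gm4189*.
*Hspa5*, chr2:34771810-34771969, plus strand: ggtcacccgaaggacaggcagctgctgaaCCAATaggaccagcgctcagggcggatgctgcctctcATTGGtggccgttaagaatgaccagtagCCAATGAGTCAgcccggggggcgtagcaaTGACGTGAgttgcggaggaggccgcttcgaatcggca
*Hspa5* site in the first exon, chr2:34772022-34772046, plus strand: tcaCCAATcggaggcctCCACGacg
*Hsp90b1*, chr10:86705510-86705739, minus strand: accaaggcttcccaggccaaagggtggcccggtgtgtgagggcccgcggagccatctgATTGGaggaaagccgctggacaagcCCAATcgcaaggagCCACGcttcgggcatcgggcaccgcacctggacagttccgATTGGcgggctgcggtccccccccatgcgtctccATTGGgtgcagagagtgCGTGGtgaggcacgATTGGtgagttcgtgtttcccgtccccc
*Calr*, chr8:84846935-84847174, minus strand: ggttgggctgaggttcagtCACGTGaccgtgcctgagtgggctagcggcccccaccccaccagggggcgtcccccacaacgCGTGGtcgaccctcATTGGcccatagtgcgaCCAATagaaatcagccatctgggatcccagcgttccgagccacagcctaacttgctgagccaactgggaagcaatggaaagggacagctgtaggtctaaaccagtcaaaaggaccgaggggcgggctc
*Xbp1* site in the first exon, chr11:5520903-5520927, plus strand: cggCCAATcgcggacggCCACGacc
*Ppp1r15a*, chr7:45526269-45526329, minus strand: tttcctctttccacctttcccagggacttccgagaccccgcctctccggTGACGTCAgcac
*Ddit3*, chr10:127290474-127290773, plus strand: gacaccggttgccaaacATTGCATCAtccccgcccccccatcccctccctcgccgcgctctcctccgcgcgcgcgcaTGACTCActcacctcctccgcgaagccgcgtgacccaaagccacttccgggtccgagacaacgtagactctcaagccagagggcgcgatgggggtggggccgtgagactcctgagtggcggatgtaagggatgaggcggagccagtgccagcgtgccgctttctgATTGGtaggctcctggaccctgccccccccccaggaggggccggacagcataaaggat
*Eif2ak3*, chr6:70844265-70844514, plus strand: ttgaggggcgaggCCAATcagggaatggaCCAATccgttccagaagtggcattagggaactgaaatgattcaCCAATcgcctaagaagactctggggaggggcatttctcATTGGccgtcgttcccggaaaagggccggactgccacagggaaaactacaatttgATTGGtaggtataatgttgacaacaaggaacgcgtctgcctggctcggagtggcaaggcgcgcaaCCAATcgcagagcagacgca
*Atf6* intron 14, chr1:170767153-170767219, minus strand: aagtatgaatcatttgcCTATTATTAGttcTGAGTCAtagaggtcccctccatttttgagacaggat
Downstream of *Atf6*, chr1:170699657-170699724, minus strand: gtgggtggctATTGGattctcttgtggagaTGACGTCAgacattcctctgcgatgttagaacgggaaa

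Each of the 10 genes had a peak within 1 kb of 1 of its own transcription start sites (TSS) in both longer lists. Over all protein-coding genes this share was 44.8% for the control female list and 55.5% for the VEDS male. In the shorter lists 1 of 10 genes had such a peak, *Eif2ak3* for the control male (1.34% over all genes) and *Hsp90b1* for the VEDS female (1.37%). The VEDS female peak covered the start of the neighboring gene *Ttc41* and ended 38 bp short of that of *Hsp90b1*, so it cannot be assigned to either. No gene of the 10 had a promoter peak in 1 genotype alone, but this rests on the longer lists. Without the control female library 1 gene was left in control, and without the VEDS male library 1 gene in VEDS. The promoter peaks were also stronger than most. Their median −log10 q, MACS2's significance of a peak over local background, was 25.6 in the control female list, against 13.3 over the 8659 promoter peaks of all protein-coding genes. In the VEDS male list it was 62.3, against 28.7 over 10889. Their median width was 382 and 581 bp, against 296 and 432 bp.

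**Figure D1:**
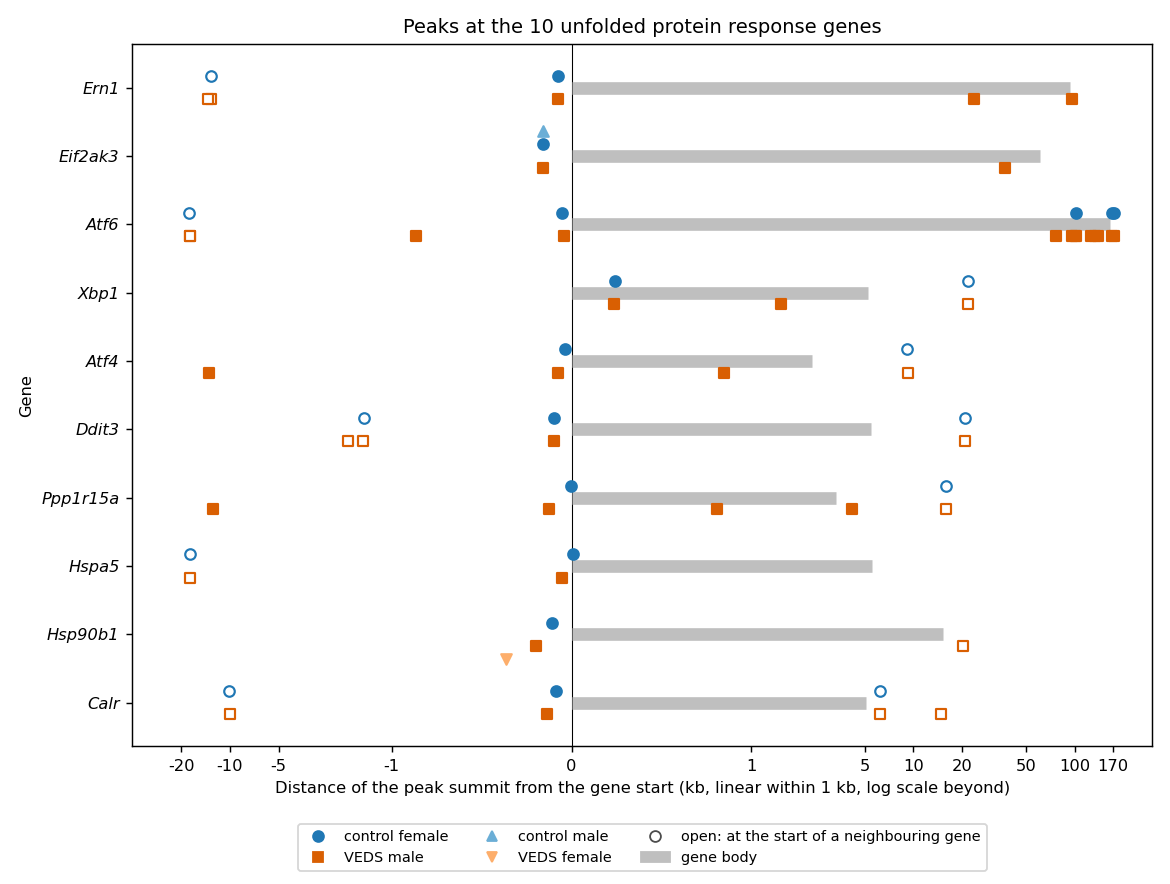
Distance of each peak summit from the start of its gene (kb, linear within 1 kb of the start and logarithmic beyond) for the 10 genes, with gene bodies in grey, lists by symbol and color, and open symbols for peaks at the start of a neighboring gene. All 10 genes have a filled symbol near the start in both longer lists, and most filled symbols far from a start lie at *Atf6*.

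Among the sensors, *Eif2ak3* had the strongest promoter peak and *Atf6* the weakest. *Eif2ak3* (chromosome 6, 70844515 to 70905245, plus strand) had a −log10 q of 38.9 in the control female list, 12.2 for the control male and 104 for the VEDS male, with 45, 14 and 114 tags at the summit and no peak in the VEDS female. It ranked at 209 of 8659 promoter peaks in the control female list, at 9 of 228 for the control male and at 49 of 10889 for the VEDS male. The summit was at −161 in both longer lists and at −157 in the control male list, counted from the first base of the gene, with negative positions upstream. None of the 6 elements searched (ERSE, ERSE-II, TGACGTG, CRE, CRE-like and C/EBP-ATF) was in its 300-bp summit window, but the window held 7 CCAAT boxes, the sequence of NF-Y. Windows with as many made up 0.0693% of all promoter windows in the control female list and 0.0551% in the VEDS male, 6 windows in each.

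*Ern1* (chromosome 11, 106394650 to 106487852, minus strand) had a −log10 q of 25.5 in the control female list (29 tags) and 65.3 in the VEDS male (75 tags), and no peak in either shorter list. Its summits were at −76 and −75, 1 base apart. The window had no element and no CCAAT box, 4 GGGCGG boxes of the SP1 type, and 1 ETS site CCGGAAG at −12. *Atf6* (chromosome 1, 170704674 to 170867771, minus strand) had a promoter peak of −log10 q 6.55 in the control female list, from 10 tags, and 14.3 in the VEDS male, from 24 tags. These were the lowest values of the 10 genes in each list, and in position among all promoter peaks they came at 83.3% and 77.7% from the top. No element and no CCAAT box lay in the window. A further VEDS male peak (−log10 q 11.3) had its summit at −863, beside the start of the noncoding gene *Gm9929* on the opposite strand.

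Among the transcription factors downstream of the sensors, *Xbp1* (chromosome 11, 5520659 to 5525893, plus strand) had its summit inside the first exon rather than before it. The −log10 q was 15.7 in the control female list (23 tags) and 46.8 in the VEDS male (63 tags), with summits at 239 and 238, in the 5′ UTR. An ERSE began at 247, 8 and 9 bases past these summits, and before another annotated *Xbp1* start at 346. It was the only element in the window, which also held 2 CCAAT boxes. A second VEDS male peak (−log10 q 12.5) had its summit at 1523, inside the gene, and its edge 72 bp from the nearest *Xbp1* start. This peak had no overlap in the control female list.

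*Atf4* (chromosome 15, 80255184 to 80257541, plus strand) had a −log10 q of 18.4 in the control female list (29 tags) and 59.2 in the VEDS male (83 tags), with summits at −35 and −76. Its window held 2 CCAAT boxes and no element. A weaker VEDS male peak (−log10 q 10.9) had its summit at 846 in an exon. *Ddit3* (chromosome 10, 127290774 to 127296288, plus strand) had a −log10 q of 25.8 (42 tags) and 56.2 (98 tags), with the summit at −95 in both lists, in an exon of the noncoding *Gm4189* on the opposite strand. In both lists the peak covers the starts of *Ddit3* and *Gm4189* and cannot be assigned to either. The VEDS male peak was 815 bp wide and the control female peak 297 bp, the largest width ratio of the 10 genes (2.74). No exact element lay in the 300-bp window. The window held an AP-1 site at −223 and, at −72, an ERSE with 1 letter of its second part differing. A C/EBP-ATF element at −283 was inside the VEDS male peak but beyond the edge of the control female peak.

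*Ppp1r15a* (chromosome 7, 45522916 to 45526268, minus strand) had a −log10 q of 14.6 in the control female list (25 tags) and 39.2 in the VEDS male (64 tags). The summits were at −3 and −126, 123 bases apart, and 92.3% of all promoter pairs were that close or closer. The gene starts 62 bases from *Plekha4*, a gene on the opposite strand, so the peak covers both starts and cannot be assigned to either. A full CRE, TGACGTCA, began at −12, between the starts. It was the only full CRE in a promoter window of the 10 genes (4.31% of all promoter windows in the control female list and 3.88% in the VEDS male had 1). The control female window also held an AP-1 site at 48, which was inside the VEDS male peak but outside its summit window. A second VEDS male peak, with summit at 807 in the 5′ UTR, had a −log10 q of 7.61.

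The promoters of the chaperone genes *Hspa5*, *Hsp90b1* and *Calr* each held an ERSE. *Hspa5* (chromosome 2, 34771970 to 34777547, plus strand) had a −log10 q of 29.3 in the control female list (37 tags) and 73.4 in the VEDS male (89 tags), with summits at 9 and −54. Its window held an ERSE at 55, TGACGTGA at −37, an AP-1 site at −62, which shares a base with the CCAAT box before it, and 5 CCAAT boxes in all. The RefSeq start of *Hspa5* is 120 bases inside the GENCODE gene, and from there the ERSE is at −65 and TGACGTGA at −157. Windows with 5 or more CCAAT boxes made up 0.681% and 0.560% of all promoter windows.

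*Hsp90b1* (chromosome 10, 86690209 to 86705509, minus strand) had a −log10 q of 26.3 in the control female list (38 tags), 3.57 in the VEDS female (8 tags) and 81.0 in the VEDS male (105 tags), and no peak in the control male list. The summits were at −108, −362 and −197. The gene *Ttc41* starts 302 bases away on the opposite strand, and the VEDS female summit lay in its 5′ UTR. In both longer lists the peak covers the starts of *Hsp90b1*, *Ttc41* and *Gm25745* and cannot be assigned to any of them. The VEDS male peak was 1137 bp wide, wider than 99.4% of promoter peaks of that list, and the control female peak 711 bp, wider than 97.5%. ERSEs began at −147 and −42, in opposite directions, and sequences with 1 letter of the second part differing at −186 and −107. The control female window held both ERSEs and 6 CCAAT boxes, and the VEDS male window, centered farther upstream, the ERSE at −147 and 5 CCAAT boxes.

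*Calr* (chromosome 8, 84841850 to 84846934, minus strand) had the highest promoter peak of the 10 genes in the control female list, with a −log10 q of 58.2 (61 tags), 12 from the top among 8659 promoter peaks. In the VEDS male list it had 83.3 (100 tags), at 351 of 10889, and it had no peak in the shorter lists. The summits were at −84 and −134. The noncoding gene *1700122E12Rik* starts 254 bases away on the opposite strand. In both longer lists the peak covers both starts and cannot be assigned to either. Its window held an ERSE at −159, an E-box at −221 and 2 CCAAT boxes.

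**Figure D2:**
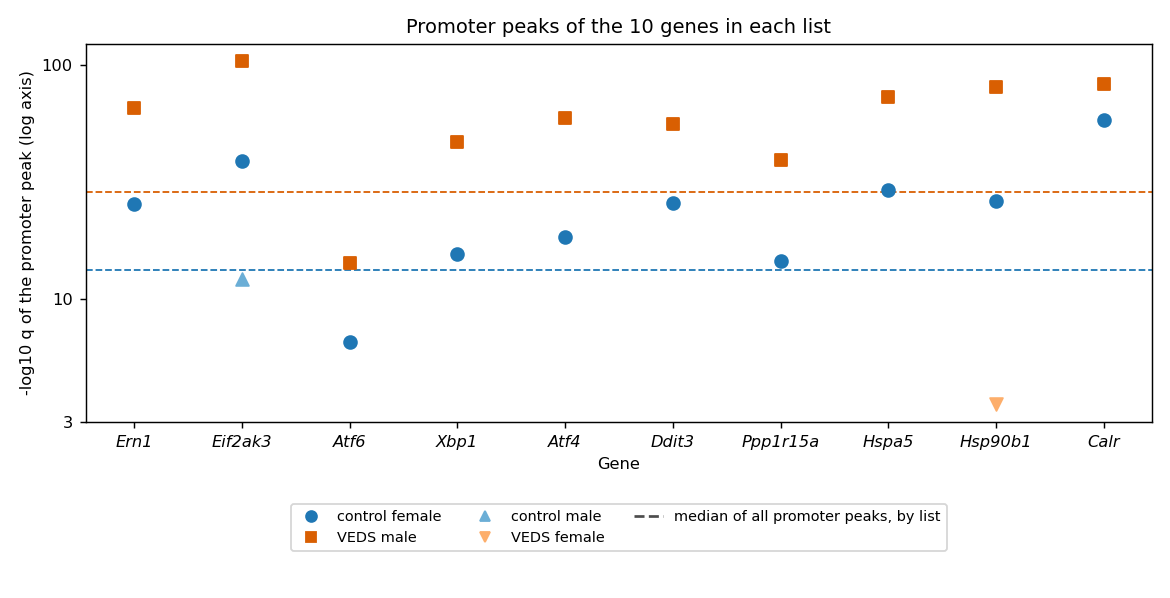
−log10 q of the strongest promoter peak of each gene (log axis) in each deposited list, by symbol and color, with dashed lines at the medians over all promoter peaks of the control female (13.3) and VEDS male (28.7) lists. In both lists 9 genes lie above the median of their list and *Atf6* below it.

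The ERSE was rare over the genome's promoter peaks and frequent at these genes. It was present in the summit windows of 4 of the 10 genes in each longer list, *Hspa5*, *Hsp90b1*, *Xbp1* and *Calr*. Over all promoter windows it was present in 0.162% (14 of 8659) in the control female list and 0.138% (15 of 10889) in the VEDS male. Any of the 6 elements was present at 5 of 10 genes in each list, these and *Ppp1r15a*, against 9.35% and 8.61% of all promoter windows. The count was 4 with 150-bp windows and 6 with 500-bp windows or with an ERSE allowed 1 differing letter in its second part, in each genotype. With the whole peak searched it was 5 in control and 6 in VEDS. The share of all promoter windows with any element was not computed under these settings. The ERSE allowed 1 differing letter was by itself in 1.59% of all promoter windows in the control female list and 1.52% in the VEDS male. The ERSE was defined on chaperone promoters of this kind, so its presence there is background knowledge and not independent of the choice of genes. Of the 14 control female windows with an ERSE, 11 belonged to the 10 genes (4 windows) or to the wider list described next (7 windows, *Canx*, *Creld2*, *Ero1lb*, *Dnajc3*, *Pdia6*, *Syvn1* and *Derl3*). The other 3 were at *Pan2*, *Pygo2* and *Edc4*. The VEDS male list had an ERSE at the same 14 promoters and at 1 more, *Xlr3b*.

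**Figure D3:**
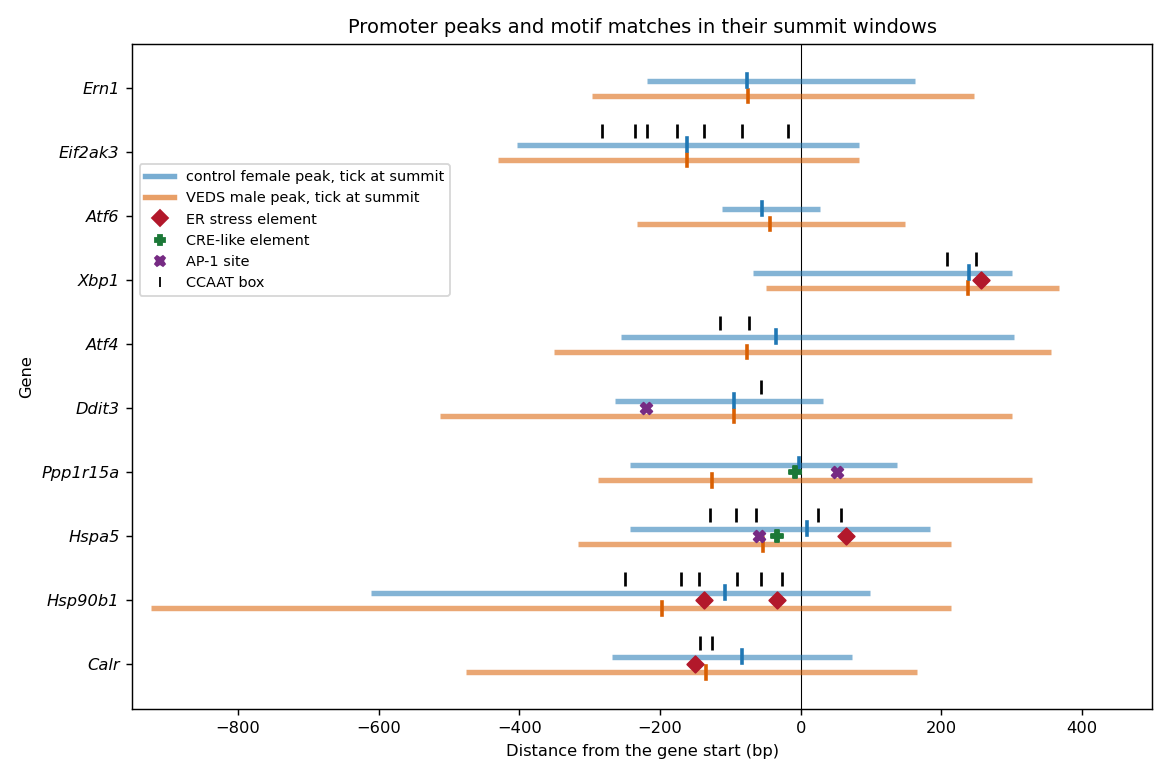
Extent of the promoter peaks (bars, with a tick at the summit) of the control female and VEDS male lists around the start of each gene in bp, with matches to the ER stress element, CRE-like element, AP-1 site and CCAAT box in the 300-bp summit windows. The ER stress elements lie upstream of the GENCODE gene start at *Hsp90b1* and *Calr* and past it at *Hspa5* and *Xbp1*. From the RefSeq start of *Hspa5* its element is upstream, at −65. *Eif2ak3* has 7 CCAAT boxes and none of the other marks.

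Of the other motifs, a CCAAT box was in 7 of 10 windows in each longer list, against 42.7% and 40.1% of all promoter windows. CRE-like TGACGTNA was in 2 of 10 windows, at *Hspa5* and *Ppp1r15a*, against 6.44% and 5.79%. The AP-1 site was in 3 of 10 windows in the control female list and 2 of 10 in the VEDS male, against 3.74% and 3.77%. The difference was the *Ppp1r15a* site at 48, which both peaks covered but the VEDS male window did not. GGGCGG was in 6 and 5 of 10, against 72.5% and 69.3%. MEF2 and SRF sites, those of smooth muscle genes, were in none of the promoter windows of the 10 genes, where 1.27% and 1.35% of control female windows and 1.41% and 1.30% of VEDS male windows held them. In the RefSeq promoter sequences (GRCm38, 250 bases before to 50 after the start), which held 9 of the 10 genes and not *Atf6*, an ERSE was found at 3 genes and in 0.119% of 32817 promoters, and a CCAAT box at 6 genes and in 37.4%.

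Between the longer lists, summit coverage at the 10 promoters differed by much the same factor as at all promoters. The VEDS male list had more tags than the control female list at each of the 10 summits. The ratio had a median of 2.55 and ran from 1.64 to 2.86. Over 8271 promoter pairs the median was 2.52, with 5th and 95th percentiles of 1.73 and 3.79. The counting interval of the ratio (exact binomial, 95%, counting error only) held 2.52 at 9 of the 10 genes. How often the interval of any promoter pair held 2.52 was not computed, so this count has no background. The exception was *Calr*, with 100 tags against 61, a ratio of 1.64 (1.18 to 2.29), lower than at all but 3.34% of promoter pairs. The *Calr* tags were counted at summits 50 bases apart, and whether its ratio departs from the other promoters was not tested. Its fold enrichment over local background was 15.6 in the VEDS male list and 18.2 in the control female, a ratio of 0.855, where the median over all pairs was 1.25. *Ddit3* had the next lowest ratio of fold enrichment, 0.956 (8.78 against 9.18), with a tag ratio of 2.33 (1.61 to 3.43). Each ratio is from 1 library of each kind, differing in genotype, sex and depth.

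**Figure D4:**
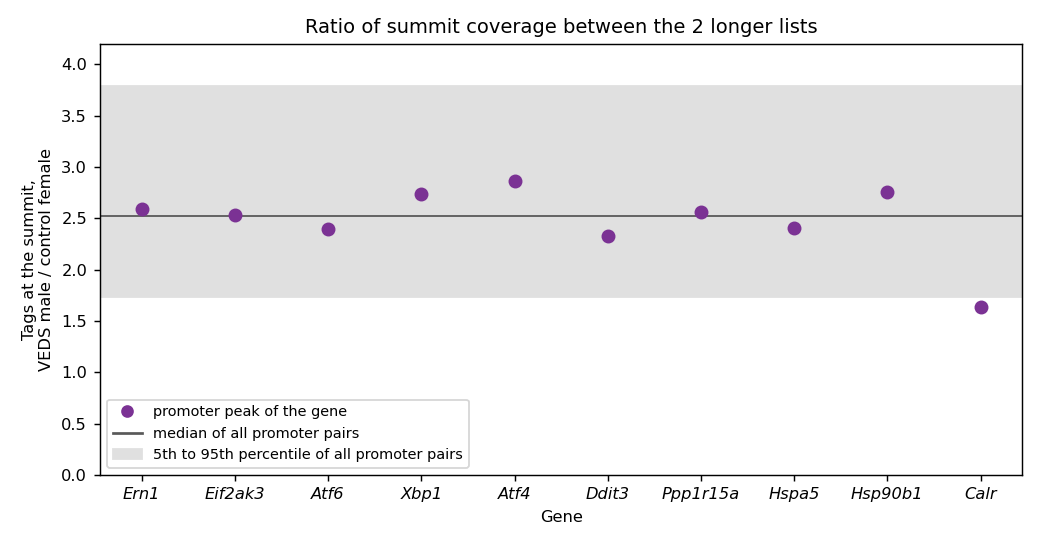
Ratio of tags at the promoter summit in the VEDS male to the control female library for each gene (points), with the median (line, 2.52) and the 5th to 95th percentiles (grey, 1.73 to 3.79) over all promoter pairs. Of the 10 genes, 9 lie inside the grey band and *Calr* (1.64) just below it.

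Summits were at the same base or 1 base apart in both longer lists at 4 of 10 genes (*Ddit3*, *Eif2ak3*, *Xbp1* and *Ern1*), against 10.6% of 8276 promoter pairs. They were 11 bases apart at *Atf6*, 41 at *Atf4*, 50 at *Calr*, 63 at *Hspa5*, 89 at *Hsp90b1* and 123 at *Ppp1r15a*. The median was 26.0 bases, against 30.0 over all pairs.

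After overlapping peaks of a genotype were merged, the 10 genes had 23 peaks in control and 44 in VEDS. All 23 control peaks overlapped a VEDS peak (95% Wilson interval 85.7 to 100), against 92.9% of all merged control peaks. Of the 44 VEDS peaks, 23 had an overlap in control (52.3%, 37.9 to 66.2), where over all merged VEDS peaks the share was 48.1%. The peaks without an overlap were the weaker ones. The 21 found in the VEDS male list alone had a median −log10 q of 7.23 (1.68 to 15.1), and the 23 shared peaks 39.2 (4.68 to 104) in the same list. By place, the VEDS male list had 14 peaks within 1 kb of a start of the 10 genes, of which 10 overlapped a control female peak. It had 15 at the start of a neighboring gene, of which 10 overlapped, and 15 distal peaks, of which 3 overlapped. Over all peaks of that list the share was 64.8% within 1 kb of any annotated start, against 20 of 29 (69.0%, Wilson interval 50.8 to 82.7) here, and 37.0% for distal peaks, against 3 of 15 (7.05 to 45.2). These Wilson intervals treat peaks as independent and are description only, since 9 of the 15 distal peaks lay at *Atf6*. Within each sex the counts went opposite ways, from 23 in control to 1 in VEDS for the female libraries and from 1 to 44 for the male. With a −log10 q of at least 10, 19 control and 27 VEDS peaks were left and 70.4% of the latter overlapped.

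The distal peaks were mostly at *Atf6*, the longest gene of the 10 at 163098 bp. It had 3 of 3 distal peaks in the control female list and 9 of 15 in the VEDS male. The 3 shared peaks were in intron 14 and at 2 places past the end of the gene. The intronic summit was at 170767181 in both lists, with a −log10 q of 7.72 (12 tags) in the control female and 24.4 (33 tags) in the VEDS male. An AP-1 site began 2 bases and a MEF2 site 12 bases from that summit. An AP-1 site was present in 18.5% and a MEF2 site in 9.21% of all distal windows of the control female list, and in 15.4% and 7.92% of those of the VEDS male. Of the intergenic peaks, that with summits at 170699616 and 170699665 had a −log10 q of 18.6 (30 tags) and 24.3 (50 tags) and held a full CRE at 170699687 to 170699694, a sequence present in 1.18% and 0.914% of all distal windows. The other, with summits at 170694945 and 170694941, had 15.2 (27 tags) and 26.1 (53 tags) and none of the elements. The 6 distal peaks of *Atf6* in the VEDS male list alone lay in introns 12, 14 and 15, with −log10 q from 1.68 to 9.90. A MEF2 site was in the summit window of 2 of them, against the 7.92% above. At the intron 12 peak (−log10 q 1.81, 7 tags) the MEF2 matches lay outside the peak itself.

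The other distal peaks were in the VEDS male list alone and held no element. *Ern1* had 1 in intron 1 (−log10 q 5.70, 12 tags) and 1 past its end (9.90, 18 tags), and *Eif2ak3* 1 in intron 4 (12.4, 18 tags). *Ppp1r15a* had 1 in an intron of *Tulp2* (6.22, 25 tags) and 1 in an intron of *Plekha4* (6.26, 14 tags). *Atf4* had 1 in an intron of *Mief1* (8.77, 15 tags), where 100% of the peak's bases are masked as repeats. Its placement may therefore be uncertain, which was not tested. *Hspa5*, *Hsp90b1*, *Ddit3*, *Xbp1* and *Calr* had no distal peak in any list.

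Peaks at the starts of neighboring genes made up 10 of the 23 control female peaks and 15 of the 44 VEDS male peaks. All 10 were shared, among them those at *Gapvd1* (beside *Hspa5*), *Mbd6* and *Mars* (*Ddit3*), *Rps19bp1* (*Atf4*), *Dusp12* (*Atf6*), *Ccdc117* (*Xbp1*), *Snord104* (*Ern1*), *Nucb1* (*Ppp1r15a*), and *Farsa* (*Calr*). The −log10 q of the 10 ran from 1.83 at *Mbd6* to 26.9 at *Snord104* in the control female list. In the VEDS male list the same 10 ran from 4.68 to 89.2, at the same genes. The 5 others were at *1810014B01Rik*, *Mbd6*, *Dusp12*, *Gm22711* and *Gadd45gip1*, with −log10 q from 3.24 to 15.1. Any of the 6 elements was in 2 of 10 neighbor windows in the control female list and 2 of 15 in the VEDS male. Over all promoter windows the shares were 9.35% and 8.61%. The window at *Nucb1*, which encodes a calcium-binding protein of the Golgi, held an ERSE-II (ATTGG, 1 base, CCACG), present in 0.139% and 0.110% of all promoter windows. That at *Mars*, which encodes the methionyl-tRNA synthetase, held a C/EBP-ATF element, present in 0.323% and 0.367%.

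A wider list of 64 genes of the response also had promoter peaks at most of its genes, 57 (89.1%) in the control female list and 60 (93.8%) in the VEDS male, against 44.8% and 55.5% of all protein-coding genes. ER chaperones and oxidoreductases had a promoter peak at 19 of 19 genes in both lists. Genes of ER-associated degradation had 15 and 16 of 16. Genes of translation control and targets of ATF4 had 13 and 15 of 16. *Cebpb* (11.1) and *Slc7a11* (6.10), a cystine transporter, had a peak in the VEDS male list alone, and *Asns*, asparagine synthetase, in neither. Genes that process the sensors or act with them had 10 of 13 in both, without *Mbtps2*, *Ern2* and *Creb3l1*. *Mbtps2* encodes a protease that cuts ATF6, and *Ern2* is the paralog of *Ern1* known from gut and airway epithelium.

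In the shorter lists the wider list had 1 promoter peak for the control male (1.56% of its genes), at *Selenos*, and 3 for the VEDS female (4.69%), at *Manf*, *P4hb* and *Creb3l2*, where 1.34% and 1.37% of all genes had 1. In the longer lists these genes had a −log10 q of 33.7 and 81.2 (*Selenos*), 22.1 and 60.5 (*Manf*), 20.9 and 44.1 (*P4hb*), and 39.4 and 90.8 (*Creb3l2*). An ERSE lay in 5 of 19 windows of chaperone and oxidoreductase genes in each longer list. It lay in 2 of 15 degradation windows in the control female list and 2 of 16 in the VEDS male. None of the windows of translation control or of the sensors' partners held an ERSE. A CCAAT box lay in 37 of the 57 windows of the wider list in the control female and 38 of 60 in the VEDS male, where 42.7% and 40.1% of all promoter windows had one. By group it lay in 15 of 19 chaperone windows in each list, 11 of 15 and 11 of 16 degradation windows, 8 of 13 and 9 of 15 windows of translation control, and 3 of 10 windows of the sensors' partners in each. No full CRE was found in the windows of the wider list, and 4.31% and 3.88% of all promoter windows held one.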

How the data were processed

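Peaks of the 4 ATAC-seq libraries were used as deposited. According to the methods, the authors aligned reads to mm10 (aligner not given in the sources used here), removed duplicates by barcode and corrected for the Tn5 cut. They ran MACS2 in narrow mode and excluded blacklisted regions. Each library has its own deposited list. The paper also reports peaks by genotype, with fewer for VEDS than for control. The lists merged here went the other way, with 21861 peaks in control and 41496 in VEDS. The deposited lists give each peak a score, the fold enrichment (a ratio to local background), −log10 p and −log10 q, all by the authors and each relative to its own library. Here, tags at a summit were computed from the fold enrichment (pseudocount 1) and the −log10 p under a Poisson distribution. The tolerance was 0.002 for weak peaks and grew in proportion to the −log10 p for stronger ones. Genes, TSS and exons were from GENCODE vM21 and sequences from GRCm38. Consensus motifs were searched on both strands in 300-bp summit windows. The strongest peak within 1 kb of any TSS represented a promoter, and peaks shared by genes were counted once in the backgrounds. Groups were taken from the sample annotations. All comparisons are descriptions without tests.

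The members and the lists of genes were chosen with earlier results of these data known. All 10 genes are named with every peak, as are genes of the wider list without a promoter peak in a longer list or with 1 in a shorter list, and neighbors within 1 kb of a peak. Some items under this rule are not reported here. The other genes with an ERSE were named after their windows were seen. Alternatives were −log10 q of at least 5 or 10, equal list size, other windows, distances, overlaps and consensus sequences, and leaving out each library. The computation was tested on simulated peaks and sequences. Python 3.11.15, numpy 2.4.6, pandas 2.3.3, scipy 1.17.1, pysam 0.24.0 and matplotlib 3.10.9 were used.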

Additional observations from a re-analysis of the deposited data

How the results depend on the processing

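The counts depended mainly on the longer lists. At equal list size, 504 peaks by −log10 q, control kept 2 merged peaks at the 10 genes, 2 genes with a promoter peak, 1 with an element and 8 of the wider list, and VEDS 4, 3, 1 and 9. When each library was left out in turn, control ran from 1 to 23 merged peaks, 1 to 10 promoters, 0 to 5 genes with an element and 1 to 57 of the wider list, and VEDS from 1 to 44, 1 to 10, 0 to 5 and 3 to 60. The low values were those without the control female or the VEDS male library. The share of control peaks that overlapped VEDS ran from 4.35% to 100%, and of VEDS peaks that overlapped control from 2.27% to 100%. With a −log10 q of at least 10, VEDS had 27 merged peaks, 70.4% of which overlapped control. A window of 5 kb left 14 control peaks and 1 of 50 kb gave 71 VEDS peaks. With overlap of at least 50% of both peaks, 82.6% of control peaks overlapped. The other 41 recomputed values with all libraries stayed within 1.5 times the count reported or within the interval of the share. No paired analysis was possible because the results come from no test. The replicate numbers follow sex, and each genotype had 1 library of each sex. The median of 6 or 7 tags at a summit limits what the shorter lists can show.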
